A study of Mus musculus with 30 samples.

Results

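Quadriceps muscle and spinal cord of the same 3 untreated wild-type mice were compared, with no knockout and no vector in any of the samples. The animals, numbered 4, 5 and 6, were males aged 4 months, wild type at Gaa on the B6;129 background, and each gave 1 quadriceps and 1 cord library of polyA RNA. These 6 libraries, of 30 in the series, were chosen by their labels, and the comparison covered all 17420 genes of the deposited table, of which 15539 passed the filter on low levels (3 or more of the 6 libraries at a signal of 1 or above) and 1881 did not. The other libraries come from a study of Pompe disease, in which loss of the glycogen-degrading enzyme Gaa damages muscle and cord. The comparisons below use 12 libraries of wild-type mice, and all 30 enter only 1 alternative fit. The 12 are the 6 above and 6 of 3 untreated wild-type males of the same age on a mixed background, B6;129;DBA2/J, which carries the allele Ltbp4D36/D36. The labels call the tissues quadriceps and spinal cord, and each sample is dissected tissue, so that fewer cells of a type and less RNA per cell cannot be told apart.

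Skeletal muscle is built of multinucleated fibres packed with contractile filaments, which are triggered by calcium from the sarcoplasmic reticulum and fuelled by creatine phosphate, glycogen, glucose and fatty acids. The spinal cord holds motor neurons, local inhibitory and excitatory neurons, the axons of long tracts, myelinating oligodendrocytes, astrocytes and microglia, behind a vessel barrier. Many metabolic enzymes and channels that both organs need are encoded by paired genes, of which muscle uses a specialised copy.

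Levels below are the deposited signal, a read count scaled to an effective library size, which is not divided by gene length. The tissue difference is the mean log2(signal + 0.5) of quadriceps minus that of cord, with its standard error from limma and the animal as a block, so a positive value means a higher level in quadriceps and low genes have understated differences. Groups of 3 values are in the order of animals 4, 5 and 6 throughout, and a level with ± is a mean and SD over these 3 animals. Libraries held 20487557 to 33192761 reads in quadriceps and 19497640 to 34207758 in cord, and 1 read was worth 0.0465 to 0.072 of signal in quadriceps and 0.0179 to 0.0314 in cord. Quadriceps RNA was concentrated in few genes: the 10 most abundant took 25.7% to 27.2% of reads, against 8.2% to 8.65% in cord, and 49 to 54 genes made up 50% of quadriceps reads against 1012 to 1039 of cord reads. The authors' scaling counters this concentration with factors of 0.648 to 0.678 on the quadriceps and 1.63 on the cord libraries. The median difference of all tested genes was -0.05 with that scaling, 0.20 after quantile normalization, 0.21 after median centring and -1.27 on plain RPM, so the direction of a small difference depends on the scaling.

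Nearly every measured gene differed between the tissues. At an adjusted p under 0.05 (limma, Benjamini-Hochberg) 13509 of 15539 genes were called, which is 86.9%, with 6589 (42.4%) higher in quadriceps and 6920 (44.5%) higher in cord. Beyond a 2-fold difference, tested against that bound with limma's treat, 3205 genes (20.6%) were higher in quadriceps and 4114 (26.5%) in cord, and the extremes were more numerous in cord: 694 of these genes differed by over 5 on the log2 scale towards cord and 270 towards quadriceps. Of all called genes 48.8% were higher in quadriceps as deposited, 55.9% after quantile normalization, 55.8% after median centring and 18.6% on plain RPM. Beyond 2-fold the same shares were 43.8%, 53.7%, 52.2% and 13.6%. Of the 7319 genes beyond 2-fold, 7136 kept their direction on plain RPM, 7308 after quantile normalization and 7319 after median centring. The 3 animals were alike: among genes with a mean signal of at least 10, the median SD between animals was 0.106 in quadriceps and 0.0581 in cord on the log2 scale, and the 2 groups of 3 libraries did not overlap at 13730 genes (88.4% of those tested).

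**Figure D1:**
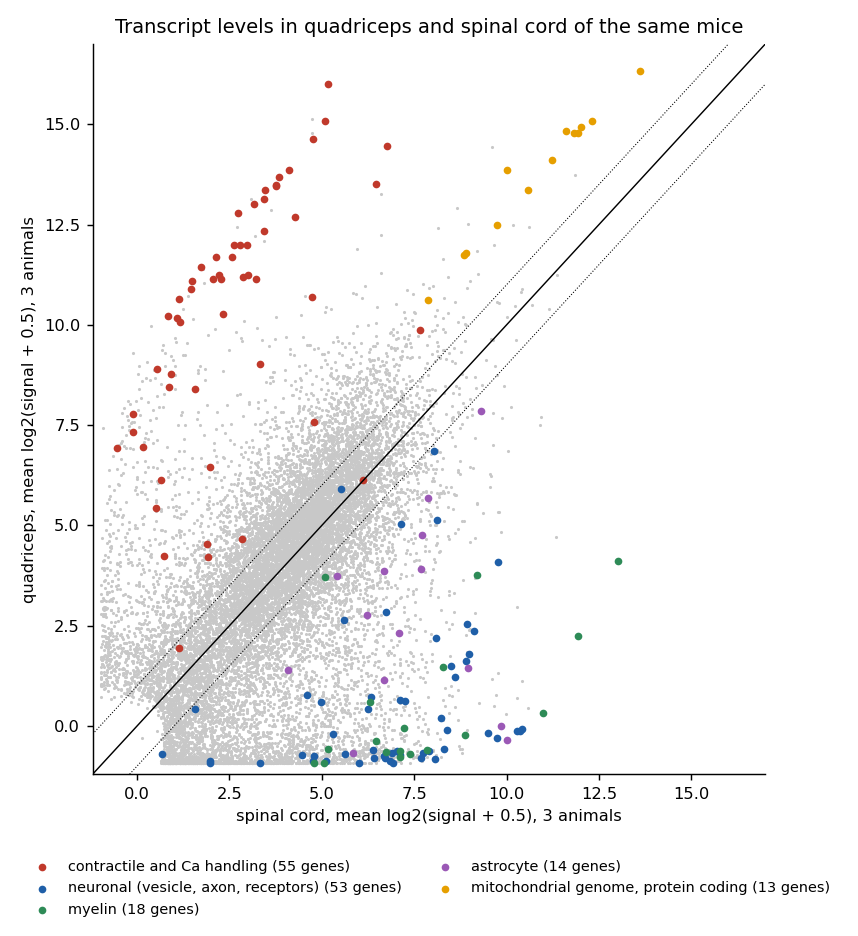
Mean log2(signal + 0.5) of each tested gene in spinal cord (horizontal axis) and in quadriceps (vertical axis) over 3 animals, with named gene groups in colour; the solid line marks equal levels and the dotted lines a 2-fold difference. Most contractile genes lie high above the line and most neuronal and myelin genes far below it, with the genes of the mitochondrial genome at the upper end of both axes.

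The 10 genes with the largest differences towards quadriceps all encode sarcomere proteins, the calcium pump or creatine kinase. Myh4, the myosin heavy chain of the fastest fibres, held 75150.3, 62759 and 60889 in quadriceps and 47.7, 118 and 7.75 in cord, a difference of 10.83 ± 0.65 (adjusted p = 8.18e-06, limma). Every quadriceps library was far above every cord library, and the cord values themselves differed from each other. Atp2a1, the calcium pump that refills the sarcoplasmic reticulum of fast fibres, held 40167, 34336 and 33055 and 32.7, 79.5 and 6.57 (10.39 ± 0.58), and Ckm, muscle creatine kinase, 28279, 28663 and 27274 and 38.7, 74.5 and 5.77 (10.05 ± 0.61). The rest of the 10 were Mybpc2, Actn3, Acta1, Myl1, Tnnt3, Tnnc2 and Neb, at 9.84 to 10.05. The 10 largest towards cord included Mobp, Snap25, Nefl, Nefm, Slc1a2, Cplx1, Gfap, Aldoc and Nefh, genes of myelin, neurons and astrocytes, at -10.65 to -9.69.

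Genes of the contractile apparatus were higher in quadriceps almost without exception, and the fast members more than the slow. All 12 fast-fibre genes tested were higher in quadriceps (median 9.72), as were 18 of 18 sarcomere genes common to fibre types (median 9.05). Of the slow and cardiac list 11 of 12 were higher, with a median of 4.00, against -0.05 over all genes. Ttn, the giant spring protein titin, held 14782, 15326 and 14151 in quadriceps and 24.2, 46.7 and 3.82 in cord (9.75 ± 0.58), and Acta1, skeletal alpha-actin, 32522, 36824 and 35579 and 48.8, 83.9 and 8.66 (10.02 ± 0.57). Myh7, the slow myosin heavy chain, held 72, 65 and 141 in quadriceps and 5.8, 2.84 and 2.39 in cord (4.48 ± 0.36, adjusted p = 3.47e-05). In quadriceps Myh4, Myh1 and Myh2 stood at means of 66266 ± 7750.3, 11584 ± 2429 and 5207 ± 619 (SD, n = 3) and Myh7 at 92.8 ± 42.3. Tpm3, the slow tropomyosin, which other cells also use, was the member that did not pass, at 71 ± 18.1 and 68.4 ± 0.883 (0.02 ± 0.13, adjusted p = 0.873; -0.18 without animal 6, adjusted p = 0.0447).

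The machinery that couples excitation to contraction followed. All 13 genes were higher in quadriceps (median 7.86). Casq1, which stores calcium in the reticulum, held 3189, 3455 and 3281 in quadriceps and 5.36, 12.7 and 2.14 in cord (9.13 ± 0.38). Trdn, which anchors it near the release channel, stood at 1191 ± 126 and 1.66 ± 1.44 (9.38 ± 0.35). The smallest differences in this list were those of Bin1, a membrane-bending protein with a neuronal form (931 ± 55 and 199.8 ± 6.8, 2.22 ± 0.08), and of Cacnb1, a calcium channel subunit (2.80). All 9 muscle ubiquitin ligase genes were also higher in quadriceps (median 7.13), among them Trim63, the atrophy ligase MuRF1, at 259 ± 8.98 and 0.445 ± 0.478, and Asb2 at 1143 ± 147 and 2.41 ± 0.771. Of 14 chaperone genes 13 were higher in quadriceps, led by Unc45b, the myosin chaperone (8.30). Hsp90aa1, the stress-inducible cytosolic Hsp90, was the exception, at 137 ± 67.5 in quadriceps and 799 ± 29.8 in cord (-2.64 ± 0.21).

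Fast-fibre transcripts were present at low levels in the cord libraries, in amounts that differed between the 3 animals. Expressed as a share of the mean quadriceps level, the median of the 12 fast-fibre genes was 0.164% in the cord of animal 4, 0.292% in that of animal 5 and 0.0205% in that of animal 6. The other 11 genes ranged from 0.072% to 0.435% in animal 4. Pvalb, a calcium buffer of fast fibres that inhibitory neurons also express, stood apart at 0.661%, 0.935% and 0.653%. In the cord of the mixed-background mice the same median was 0.247%, 1.05% and 0.022%. Schwann cell genes, which mark nerve roots, also differed between the cord libraries. Of 7 Schwann genes tested 4 were higher in cord and 1 in quadriceps, against 44.5% and 42.4% of all genes. The summed signal of the Schwann genes was 478, 104 and 152 in the cord libraries and 62.8, 68.9 and 65.1 in quadriceps. The cord of animal 5 was thus highest for fast-fibre transcripts and that of animal 4 for Schwann genes, and what each value owes to tissue attached to the cord was not tested. The values bear on the size of the contractile differences, not on their direction: without the cord libraries of animals 4 and 5, a setting added after the values were seen, Myh4 differed by 12.96 and Acta1 by 11.90.

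**Figure D2:**
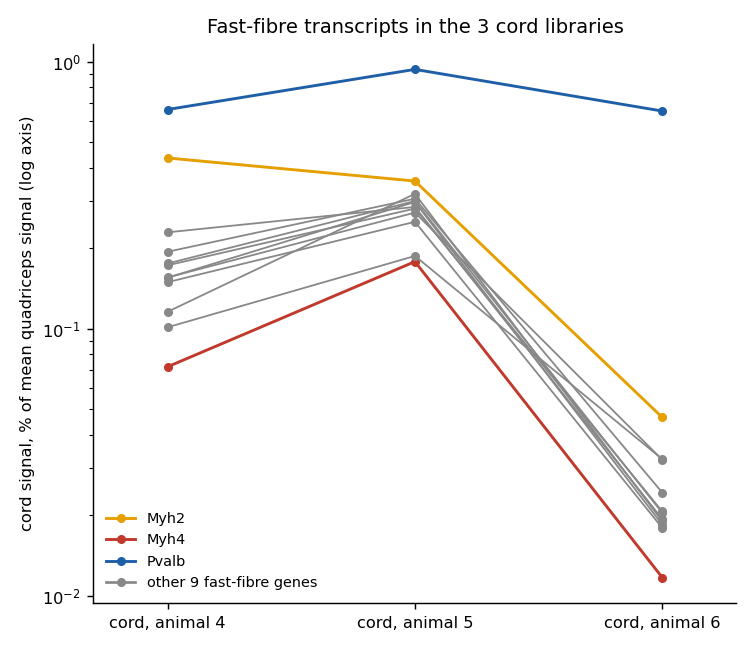
Signal of 12 fast-fibre genes in each cord library as a percent of the gene's mean signal in the 3 quadriceps libraries, on a log axis; a line joins the values of a gene. All 12 genes have their lowest value in the cord of animal 6, and Pvalb lies apart from the other 11 there.

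Regulators of the muscle lineage were higher in quadriceps throughout. All 16 genes tested passed (median 4.16). Myf6, the myogenic factor of mature fibres, held 97.2, 99.1 and 107 in quadriceps and 0.131, 0.581 and 0.0983 in cord (7.10 ± 0.20), and Myod1 34, 33.6 and 35.9 and 0.0726, 0.141 and 0.00894. Mstn, which encodes the growth inhibitor myostatin, stood at 106 ± 20.9 and 0.138 ± 0.0961 (7.38 ± 0.18). The satellite cell regulators were scarce in whole muscle: Pax7 held 2.99, 2.85 and 2.21 in quadriceps and 0.0726, 0.0471 and 0.0447 in cord.

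Genes of the neuromuscular junction were split, 8 of 11 higher in quadriceps and 3 in cord, against 42.4% and 44.5% of all genes. On plain RPM these counts were 7 and 4. The acetylcholine receptor subunits were on the muscle side: Chrna1 stood at 15.7 ± 1.44 and 0.615 ± 0.216 (3.87 ± 0.13) and Chrne, the adult subunit, at 14 ± 1.31 and 0.185 ± 0.0412 (4.40 ± 0.14). Chrng, the fetal subunit, stayed below the filter at 0.108, 0.202 and 0.209 in quadriceps. Rapsn, which clusters the receptors (4.58), and Musk, the kinase that organises the junction (4.29), were higher in quadriceps. Lrp4, the agrin receptor (14.5 ± 0.694 and 21.9 ± 1.33, -0.58 ± 0.08), Utrn, the dystrophin relative utrophin (-1.05 ± 0.09), and Etv5, a transcription factor (-1.29 ± 0.09) were higher in cord. The transmitter side of the synapse was found in the cord: Chat, which makes acetylcholine, had no read in any quadriceps library and held 18.3, 19.2 and 15.4 in cord, at least 100.1-fold above the level of 3 reads per quadriceps library. Slc18a3, which loads acetylcholine into vesicles, was likewise without a read in quadriceps and held 32.2, 32.7 and 27.4 in cord. In all 10 motor neuron genes were higher in cord, and 5 of them had no read in any quadriceps library.

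Genes of synaptic vesicles and axons were higher in cord throughout. All 15 synaptic vesicle genes (median -6.76) and all 14 genes of the axon cytoskeleton (median -7.13) were higher in cord. Snap25, a core protein of vesicle fusion, held 1393, 1339 and 1352 in cord and 0.18, 0.778 and 0.488 in quadriceps (-10.48 ± 0.17, adjusted p = 6.4e-08). Nefl, the light neurofilament, held 1351, 1369 and 1222 and 0.18, 0.951 and 0.302 (-10.47 ± 0.19). Cord libraries lay close to each other for both genes and no quadriceps value came near them. The quadriceps values of Snap25 stand for 2, 13 and 10 reads and those of Nefl for 2, 16 and 6. Mapt, which encodes the axonal protein tau, had the smallest difference of the axonal list: it held 117, 104 and 125 in quadriceps against 264, 266 and 258 in cord (-1.19 ± 0.07). Rab3a (34.6 ± 1.81 and 278 ± 4.02) and Vamp2 (32.6 ± 3.27 and 142 ± 13.9) were the vesicle genes with a mean above 20 in quadriceps.

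Both transmitter systems of the cord showed the same pattern. Of 12 inhibitory neuron genes 11 were higher in cord, led by Slc6a5, the glycine transporter of glycinergic neurons, at 282, 271 and 247 in cord and 0.036, 0.0864 and 0.0697 in quadriceps (-8.89 ± 0.10). Gad2, which makes GABA, had no read in quadriceps and held 65.1, 63.6 and 62.5 in cord, at least 362-fold above 3 reads. Gphn, the receptor scaffold gephyrin, which also makes molybdenum cofactor in other tissues, was the exception, 59.5 ± 3.62 in quadriceps and 45.5 ± 2.24 in cord (0.38 ± 0.06, adjusted p = 0.00102), and on plain RPM it was lower in quadriceps (-0.92). All 12 glutamate genes were higher in cord. Slc17a6, the vesicular glutamate transporter of spinal neurons, had no read in quadriceps and held 121, 123 and 123 in cord (at least 693-fold), whereas Slc17a7, the transporter typical of cerebral cortex, stood at 3.14 ± 2.98 in cord and lost its call after quantile normalization (-0.02, adjusted p = 0.942) and without the animal block (adjusted p = 0.0872). All 10 dorsal horn peptide genes were higher in cord, and Penk, the enkephalin precursor, held 96.8, 97.8 and 105 there and 4.21, 6.19 and 3.14 in quadriceps. In total 101 genes with a mean cord signal of at least 10 had no read in any of the 3 quadriceps libraries. The other way round there was 1 gene, 1700047I17Rik2, named here after its values were seen. Limits of detection differed, as 1 read was worth more signal in quadriceps than in cord. Genes without a read numbered 1174 to 1487 per quadriceps library and 199 to 251 per cord library. Fast-fibre transcripts were also present in all 3 cord libraries, and what both counts owe to these limits was not tested.

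Glial genes were higher in cord by amounts that differed between cell types, with medians of -7.34 for myelin, -3.62 for astrocyte and -2.08 for microglia genes. All 18 oligodendrocyte and myelin genes passed, and their reads were 2.67% to 2.84% of each cord library. Mbp, myelin basic protein, held 8396, 8418 and 8175 in cord and 16.7, 18.8 and 14.8 in quadriceps (-8.92 ± 0.08). Aspa, which cleaves N-acetylaspartate, had the smallest difference of the list, with 10.9, 14.2 and 12.8 in quadriceps and 32.6, 36.2 and 32.5 in cord (-1.39 ± 0.08). Astrocyte genes divided by degree: Gfap (793, 1017 and 973 in cord, 0.612, 0.374 and 0.534 in quadriceps) and the glutamate transporter gene Slc1a2 (-10.37) were almost restricted to cord. Aqp4, a water channel that fast muscle fibres share with astrocytes, held 46.6, 60.5 and 45.9 in quadriceps and 221, 248 and 237 in cord (-2.21 ± 0.08), and Atp1b2, a sodium pump subunit, 229.5, 252 and 215 and 595, 650.4 and 663 (-1.45 ± 0.08). Of 15 microglia genes 14 were higher in cord (median -2.08), with Cx3cr1 at 20.1 ± 1.94 and 0.552 ± 0.163. Fcrls was higher in quadriceps (2.25 ± 0.294 against 0.865 ± 0.427, 1.05 ± 0.24), a call also lost on plain RPM (0.11). The genes of muscle-resident macrophages went the other way, 7 of 7 higher in quadriceps, with Cd163 at 7.6 ± 1.78 and 0.956 ± 0.115 and Mrc1 at 9.07 ± 2.75 and 1.14 ± 0.302.

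The extracellular matrix and the vessels differed in kind. All 9 genes of the perineuronal and interstitial matrix of the central nervous system were higher in cord (median -6.34; Bcan, brevican, 218 ± 5.93 and 0.122 ± 0.12). Of 12 fibroblast and collagen genes 11 were higher in quadriceps (median 2.67; Col3a1 187 ± 42.9 and 5.43 ± 1.48), with Pdgfra, which oligodendrocyte precursors express as well, the exception (-0.80 ± 0.12). All 12 general endothelial genes were higher in quadriceps (median 1.31, but 0.05 on plain RPM). Endothelial genes of the barrier were on the other side: 9 of 10 were higher in cord (median -3.35), with Mfsd2a, a lipid transporter of barrier vessels, at 26.6, 27.9 and 27.5 in cord and 0.036, 0.144 and 0.116 in quadriceps, and Slco1a4 at 50.1 ± 2.33 and 0.0448 ± 0.0218. Abcg2, an efflux pump of barrier vessels, was higher in quadriceps (39.4 ± 3.94 against 15.6 ± 0.688, 1.30 ± 0.07), a call lost on plain RPM (0.02). All 8 genes of muscle capillaries were higher in quadriceps (median 5.01), with Gpihbp1, which carries lipoprotein lipase into the capillary, at 23.7 ± 5.99 and 0.0712 ± 0.102 and the fatty acid carrier gene Fabp4 at 375 ± 101 and 1.34 ± 1.15. Fat cell genes were found in the quadriceps libraries (8 of 8 higher; Adipoq 25, 52.2 and 13.6 in quadriceps and 0.102, 0.204 and 0.0268 in cord). All 9 smooth muscle and pericyte genes were higher in quadriceps (median 1.68). On plain RPM (median 0.42) 6 of them were higher in quadriceps and 1 in cord. Of 7 ependymal genes 5 were higher in cord and 2 in quadriceps, and of 4 meningeal genes 3 and 1. Of all genes 44.5% were higher in cord. The summed signal of the meningeal list went the other way, at 35.5, 51.8 and 46.4 in quadriceps and 10, 10.3 and 7.7 in cord. Red cell genes were higher in cord (5 of 5; Alas2 2.97 ± 1.11 in quadriceps and 7.01 ± 2.71 in cord). The call of Alas2 was lost in the fit of all 30 libraries (adjusted p = 0.0666) and without the cord libraries of animals 4 and 5 (-0.79, adjusted p = 0.123).

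**Figure D3:**
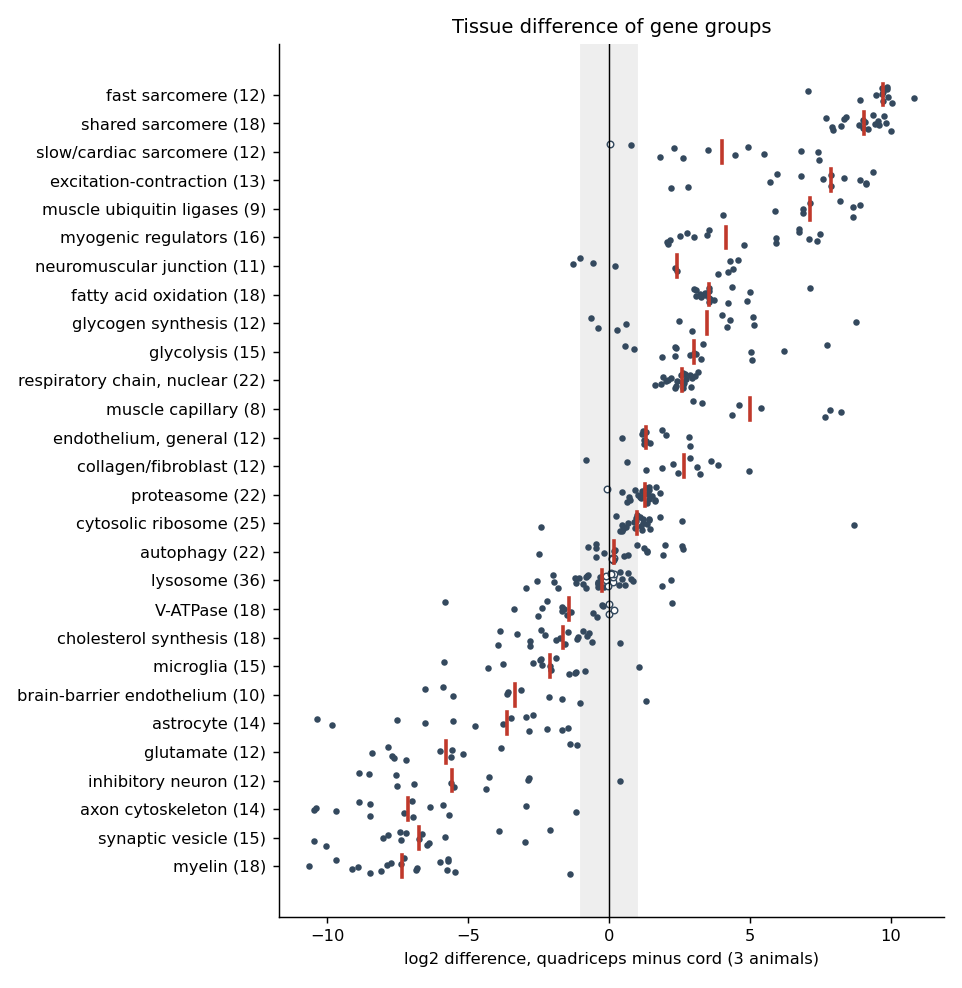
Difference between quadriceps and cord for each tested member of 28 gene groups (number of members in brackets); filled points passed an adjusted p under 0.05, open points did not, red bars mark group medians and the grey band a 2-fold difference. The fast sarcomere group has the highest median (9.72) and the myelin group the lowest (-7.34), while the autophagy (0.19) and lysosome (-0.25) medians lie close to 0.

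Genes that serve the same function in both tissues often came as a muscle copy and another copy. Of 39 such pairs, 34 had their muscle member higher in quadriceps and the other member higher in cord. The muscle member was higher in quadriceps in 38 pairs, all but Camk2g. Creatine kinase showed the split in both compartments: Ckb, the brain form, held 1244, 1266 and 1246 in cord and 6.52, 9.19 and 6.58 in quadriceps (-7.32 ± 0.10), the mitochondrial muscle form Ckmt2 1838, 3133 and 3437 in quadriceps and 4.02, 7.81 and 0.563 in cord (9.63 ± 0.59), and its partner Ckmt1 217, 225 and 227 in cord and 0.108, 0.317 and 0.0232 in quadriceps (-8.45 ± 0.14). Per kilobase of exon, Ckm made up 99.97% of the cytosolic pair in quadriceps and 2.99% ± 2.53 (SD, n = 3) in cord. Enolase divided likewise, Eno3 being higher in quadriceps (9.24 ± 0.34) and the neuronal Eno2 in cord (616, 622 and 606 against 0.756, 1.35 and 0.906, -8.69 ± 0.11). So did the sodium channel genes Scn4a (9.40 ± 0.20) and Scn8a (-8.58 ± 0.10).

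The promoters of the 4 pairs with the largest difference between their members are shown, to set the muscle and the other copy side by side. Each is the 250 bases before the start site given by RefSeq on GRCm38.p6, 5′ to 3′ on the gene's own strand. The bases just after the start were found in 0 of 8 annotated transcripts of Eno3, so its start is uncertain. They were found in 1 of 16 transcripts of Eno2, 1 of 20 of Scn8a and at least 1 of each other gene. Capitals mark a match, on either strand, to TATAAA (the TATA box), to CAGCTG (an E-box of the kind bound by myogenic factors) or to CTA, any 4 bases and TAG (a MEF2-type motif). They lie at chr13:91876886-91877135 on the minus strand for Ckmt2, chr2:121357526-121357775 on the plus strand for Ckmt1, chr11:106349391-106349640 on the minus strand for Scn4a, chr15:100870395-100870644 on the plus strand for Scn8a, chr11:70656926-70657175 on the plus strand for Eno3, chr6:124769674-124769923 on the minus strand for Eno2, chr7:19410844-19411093 on the plus strand for Ckm and chr12:111672339-111672588 on the minus strand for Ckb.
Ckmt2: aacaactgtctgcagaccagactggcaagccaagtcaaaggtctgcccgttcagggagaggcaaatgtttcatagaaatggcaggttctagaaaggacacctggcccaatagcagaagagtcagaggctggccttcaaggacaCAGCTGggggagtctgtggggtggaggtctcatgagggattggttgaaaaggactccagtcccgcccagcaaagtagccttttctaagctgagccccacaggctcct
Ckmt1: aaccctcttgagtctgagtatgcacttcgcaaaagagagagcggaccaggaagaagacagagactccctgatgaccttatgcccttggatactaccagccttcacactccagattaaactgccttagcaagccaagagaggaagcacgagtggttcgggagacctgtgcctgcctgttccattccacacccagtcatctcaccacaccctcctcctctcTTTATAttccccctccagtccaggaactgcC
Scn4a: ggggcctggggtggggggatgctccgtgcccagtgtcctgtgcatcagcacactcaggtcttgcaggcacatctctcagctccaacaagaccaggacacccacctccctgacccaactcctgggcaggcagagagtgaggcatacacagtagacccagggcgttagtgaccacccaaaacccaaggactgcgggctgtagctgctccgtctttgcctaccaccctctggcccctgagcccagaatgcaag
Scn8a: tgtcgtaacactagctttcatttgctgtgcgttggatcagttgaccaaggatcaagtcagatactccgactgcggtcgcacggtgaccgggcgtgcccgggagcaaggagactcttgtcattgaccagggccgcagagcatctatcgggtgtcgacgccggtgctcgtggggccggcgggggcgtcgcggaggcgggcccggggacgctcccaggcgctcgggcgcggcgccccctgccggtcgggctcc
Eno3: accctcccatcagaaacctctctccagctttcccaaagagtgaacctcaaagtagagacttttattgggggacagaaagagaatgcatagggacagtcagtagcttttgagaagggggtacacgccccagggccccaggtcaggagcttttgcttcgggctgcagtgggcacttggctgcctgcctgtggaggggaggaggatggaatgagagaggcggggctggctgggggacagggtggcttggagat
Eno2: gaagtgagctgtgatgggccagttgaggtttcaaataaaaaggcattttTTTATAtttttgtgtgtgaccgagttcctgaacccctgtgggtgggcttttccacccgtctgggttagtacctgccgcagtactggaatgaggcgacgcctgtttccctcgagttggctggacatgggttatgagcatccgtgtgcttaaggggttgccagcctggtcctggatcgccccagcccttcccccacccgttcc
Ckm: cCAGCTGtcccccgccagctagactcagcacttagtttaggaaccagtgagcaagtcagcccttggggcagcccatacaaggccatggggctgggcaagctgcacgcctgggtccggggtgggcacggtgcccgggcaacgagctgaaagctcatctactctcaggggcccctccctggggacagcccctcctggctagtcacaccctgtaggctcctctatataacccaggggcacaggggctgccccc
Ckb: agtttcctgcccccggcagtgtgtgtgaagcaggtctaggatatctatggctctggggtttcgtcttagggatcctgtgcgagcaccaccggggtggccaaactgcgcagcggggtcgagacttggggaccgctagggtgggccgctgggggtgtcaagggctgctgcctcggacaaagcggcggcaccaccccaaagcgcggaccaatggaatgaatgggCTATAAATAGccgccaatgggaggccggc

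In these windows CAGCTG was found before Ckmt2 and Ckm on the muscle side, and on the other side before Ckmt1, where the last base shown is the first of the match. The TATA box and the MEF2-type motif of Ckb overlap, and Eno3, Scn4a and Scn8a held none of the 3 motifs in the bases shown. The CAGCTG of Eno3 lay after the start, at position 39. The 250 bases before Scn8a and Ckb had 30 and 16 CG steps, and those before Scn4a and Ckm 4 and 6. The remaining pairs were closer, with 9 for Eno2 and 3 for Eno3, and 4 for Ckmt1 and 2 for Ckmt2. Across the 11330 tested genes with a RefSeq promoter (72.9% of those tested; 300 bases, the 250 above and 50 after the start), TATAAA was present in 7.4%, CAGCTG in 15.7% and the MEF2-type motif in 3.19%. Among the 202 of them that were higher in quadriceps by over 5 on the log2 scale the shares were 21.8%, 30.7% and 13.4%, and among the 522 higher in cord by as much they were 8.43%, 18.2% and 3.64%. In all 27025 RefSeq promoters, 1 per gene and whether or not the gene was tested, the shares were 14.2%, 16.1% and 3.7%. A match is a run of letters and was not tested as a binding site.

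The other pairs ranged from near-complete exchange to a shift in proportion. Glycogen phosphorylase changed from Pygm (10549.8, 9813 and 8928 in quadriceps, 98.7, 110.2 and 83.5 in cord) to Pygb (274, 231 and 240.1 in cord, 10.3, 14.1 and 7.83 in quadriceps), the muscle form still being 36.9% ± 4.08 of the pair per kilobase in cord. Aldoa was high in both tissues (22115 ± 1391 and 786 ± 27.6) and Aldoc almost restricted to cord (1010.1 ± 32.4 and 0.824 ± 0.665). Hexokinase was Hk2 in muscle (7.05 ± 0.10) and Hk1 in cord (-4.08 ± 0.06), and the glucose transporter genes were Slc2a4 (6.84 ± 0.14) and Slc2a1 (-3.57 ± 0.14). For lactate dehydrogenase, Ldha was higher in quadriceps (5.94 ± 0.07) and Ldhb slightly higher in cord (-0.44 ± 0.11), though not after median centring (-0.18, adjusted p = 0.158) or without the cord libraries of animals 4 and 5 (adjusted p = 0.116). A ribosomal protein was also paired: Rpl3l, the muscle paralogue of ribosomal protein L3, held 664, 675 and 664 in quadriceps and 1.5, 2.28 and 0.241 in cord, and Rpl3 54.3, 62.7 and 56 and 312, 313 and 309.6 (-2.43 ± 0.06). Translation elongation factor was Eef1a2 in quadriceps (2.00 ± 0.09) and Eef1a1 in cord (-1.46 ± 0.09).

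In 5 pairs the second member was not higher in cord. Cox7a2 was higher in quadriceps like Cox7a1 (1.36 ± 0.07), but not on plain RPM (0.06, adjusted p = 0.452). Acaca (0.08 ± 0.36), Capn2 (-0.09 ± 0.05) and Mylk (0.04 ± 0.09) did not pass the test, with 95% intervals of -0.79 to 0.95, -0.22 to 0.04 and -0.16 to 0.25. Without animal 6 Acaca was called, higher in quadriceps by 0.68 (adjusted p = 0.000404), and edgeR and DESeq2 called Capn2 higher in cord (-0.18 and -0.17), as did quantile normalization (-0.54) and plain RPM (-1.39). Calcium/calmodulin kinase II went against the pair's set-up: Camk2a, known as the neuronal alpha form, held 619, 564 and 485 in quadriceps and 85.5, 80.8 and 87.5 in cord (2.70 ± 0.09), while Camk2g did not pass as deposited, at 253 ± 26.2 and 255 ± 15.3 (-0.02 ± 0.07), and was called higher in cord after quantile normalization (-0.91) and on plain RPM (-1.32). The Camk2a locus also encodes alpha-KAP, a muscle anchoring protein, and values for the gene do not separate the products.

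**Figure D4:**
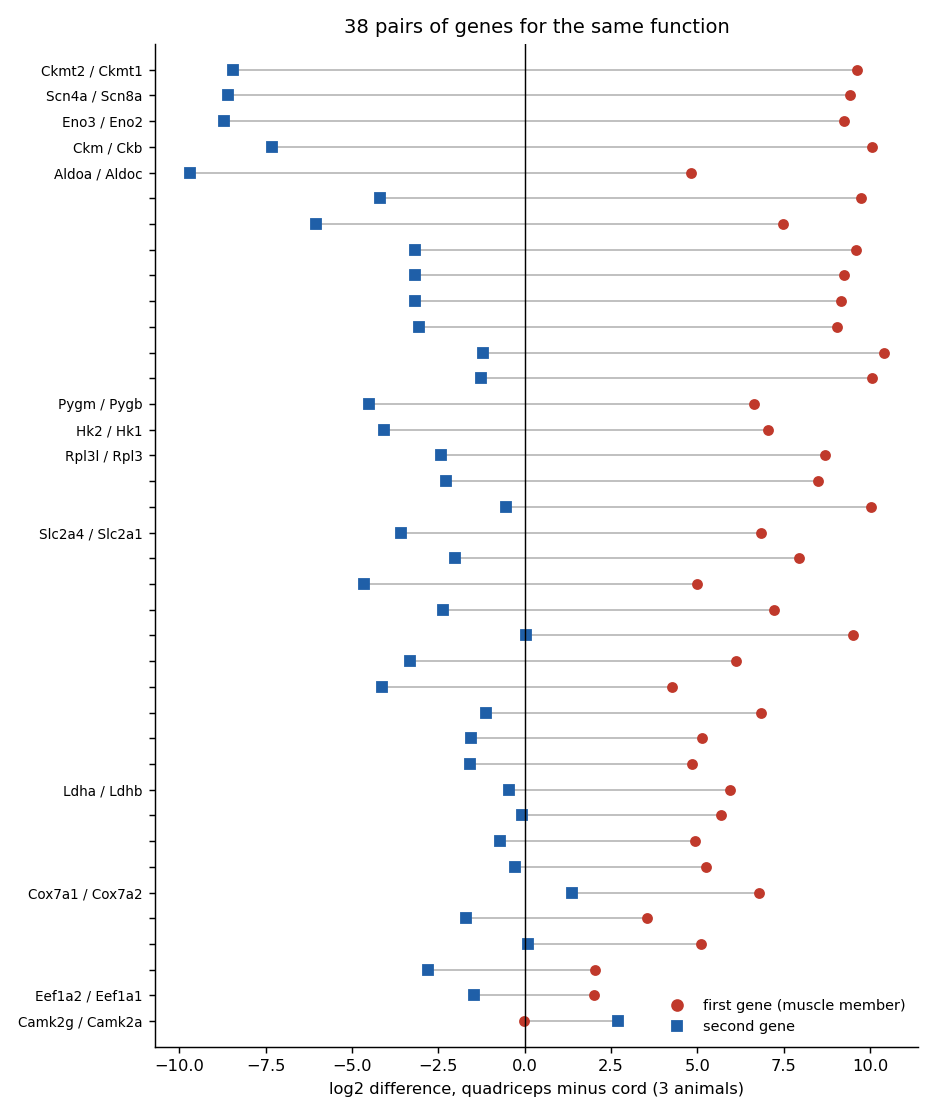
Difference between quadriceps and cord for both members of 38 of the 39 gene pairs, sorted by the distance between them; red circles mark the first (muscle) member and blue squares the second, and names are given for pairs described in the text. The members lie on opposite sides of 0 in most pairs, and the order is turned only for Camk2g and Camk2a.

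Energy metabolism was higher in quadriceps as a whole. All 18 fatty acid genes (median 3.54), all 13 citric acid cycle genes (median 2.56), all 22 nuclear respiratory chain genes (median 2.60) and all 15 glycolysis and pyruvate genes (median 3.02) passed in that direction. On plain RPM all the fatty acid and nuclear respiratory chain genes and 12 citric acid cycle genes still did. Of the glycolysis and pyruvate genes 13 were then higher in quadriceps and 2 in cord (median 1.72). Lpl, which frees fatty acids from lipoproteins, held 711, 933 and 1123 in quadriceps and 5.42, 7.59 and 4.98 in cord (7.15 ± 0.16). Nuclear subunits moved as a block: Atp5b, of the ATP synthase, stood at 4088 ± 452 and 812 ± 7.64 (2.33 ± 0.13), and the list ran from 1.62 to 3.17. Of 10 genes of glucose uptake and insulin action 7 were higher in quadriceps (median 1.85), led by Slc2a4, the insulin-regulated transporter (766, 801 and 860.3 and 7.31, 7.81 and 4.94). Slc16a3, the lactate exporter of glycolytic cells, was almost restricted to quadriceps (433 ± 36.2 and 1.55 ± 0.308), whereas Slc16a1, a more widely used transporter, stood closer (75.7 ± 16.7 and 49.8 ± 2.15; 0.58 ± 0.13, but -0.72 on plain RPM). The 13 protein genes of mitochondrial DNA were also higher in quadriceps (median 2.87; mt-Co1 70095, 82662 and 95071 and 13379, 12228 and 12225), but their median was -0.09 after quantile normalization, which levels the most abundant ranks, and without animal 5 mt-Co1 did not pass (2.67, adjusted p = 0.0798). Mt-Atp6 and the pseudogene Gm10925, which resembles mitochondrial DNA, divided their reads differently from library to library (mt-Atp6 10005, 26488 and 12192, Gm10925 18897, 5404 and 25034 in quadriceps) while their sum was 28902, 31892 and 37226, so neither is certain alone. The ribosomal RNA gene mt-Rnr2, whose reads in a polyA library depend on capture, did not pass as deposited (-0.12 ± 0.15, adjusted p = 0.468), but was called higher in cord after quantile normalization (-2.65) and on plain RPM (-1.43).

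Of the glycogen synthesis genes 10 of 12 were higher in quadriceps (median 3.48). On plain RPM (median 2.18) 4 of them were higher in cord and 8 in quadriceps. Of the breakdown genes outside the pairs 6 of 9 were higher there as deposited (median 1.40; 0.60 on the mixed background), but on plain RPM 4 were higher in quadriceps and 4 in cord (median 0.19). Gys1, muscle glycogen synthase, held 597, 626 and 637 in quadriceps and 17.4, 17.5 and 16.2 in cord (5.14 ± 0.06). Ppp1r3a, which targets the phosphatase to glycogen in muscle, held 454, 441 and 410.5 and 0.508, 1.12 and 0.134 (8.75 ± 0.22). Gaa (ENSMUSG00000025579, chr11:119267887-119285454 in GRCm38), which degrades glycogen in lysosomes, held 308, 258 and 259 in quadriceps and 218, 221 and 236 in cord with a difference of 0.28 ± 0.09 (adjusted p = 0.0194). All 3 quadriceps libraries were above all 3 cord libraries for Gaa, yet the sign rests on the scaling: it was -1.02 on plain RPM and -0.59 after quantile normalization. The call rests on animal 4, without which the difference was 0.18 (adjusted p = 0.0861), and neither edgeR (adjusted p = 0.1) nor DESeq2 (0.0645) made it.

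The direction of the lysosomal genes rested on the scaling. Of 36 tested, 9 were higher in quadriceps and 19 in cord, against 42.4% and 44.5% of all genes. Their median was -0.25 as deposited, 0.01 after median centring and -1.55 on plain RPM, where 34 were higher in cord and 2 in quadriceps. Ctsd, the protease cathepsin D, and Igf2r, the sorting receptor, had the largest differences towards quadriceps. Ctsd held 894, 856 and 1037 and 245, 255 and 261 (1.87 ± 0.08), and Igf2r stood at 126 ± 6.63 and 27 ± 0.895 (2.20 ± 0.06). Towards cord the largest were Arsb (-2.94 ± 0.17) and Ids (34.2 ± 1.59 and 203 ± 6.53, -2.55 ± 0.06), both of which degrade glycosaminoglycans, and Ppt1, a lipid-removing enzyme (-1.97 ± 0.08). Ctsb, cathepsin B, did not pass as deposited, at 439 ± 50.3 and 445 ± 2.82, with a 95% interval of -0.25 to 0.19, and was called higher in cord after quantile normalization (-1.19) and on plain RPM (-1.33).

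The proton pump of lysosomes and synaptic vesicles leaned to cord, with 14 of 18 subunit genes higher there (median -1.41). Atp6v1g2, the neuronal G subunit, held 167, 168 and 177 in cord and 3.21, 2.62 and 1.93 in quadriceps (-5.82 ± 0.13), and its general counterpart Atp6v1g1 was the member higher in quadriceps (305 ± 8.26 and 65 ± 1.97, 2.22 ± 0.06). Atp6v1a, the catalytic subunit, stood at 26.3 ± 0.887 and 275 ± 11 (-3.36 ± 0.05). Autophagy genes divided, 12 of 22 higher in quadriceps and 6 in cord, against 42.4% and 44.5% of all genes. Their median of 0.19 was -1.10 on plain RPM (4 and 15 genes) and -0.19 on the mixed background (9 and 10 genes). Tfeb, a transcription factor of lysosomal genes, was higher in quadriceps (87 ± 10.7 and 13.9 ± 0.903, 2.59 ± 0.10), as was the receptor gene Optn (2.64 ± 0.09), and Gabarapl1 was higher in cord (55.7 ± 3.99 and 315 ± 5.19, -2.49 ± 0.07). Of 18 cholesterol synthesis genes 17 were higher in cord (median -1.65): Sqle, squalene epoxidase, held 57.5, 65.5 and 63.2 there and 4.43, 4.06 and 2.9 in quadriceps (-3.88 ± 0.14). Fdft1, squalene synthase, was the exception (0.38 ± 0.05; -0.92 on plain RPM).

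Ribosome and proteasome genes were higher in quadriceps as deposited, but their direction rested on the scaling. Of 25 cytosolic ribosome genes 24 were higher (median 0.99; -0.32 on plain RPM), and of 22 proteasome genes 21 (median 1.26; -0.04). Of 18 genes in common use as references 17 passed, against 86.9% of all genes, 12 of them higher in quadriceps as deposited and 5 in cord, and on plain RPM 6 and 10 (medians 0.77 and -0.54). Among them were Gapdh at 1875, 2323 and 2053 in quadriceps and 213, 212 and 215 in cord (3.28 ± 0.09), Ppia at 145 ± 19.1 and 562 ± 11 (-1.96 ± 0.09) and Ywhaz at 61.4 ± 6.69 and 330.3 ± 5.48 (-2.42 ± 0.08). Gusb was the one that did not pass (0.13 ± 0.10, adjusted p = 0.24). Over all tested genes, 673 (4.33%) had a 95% interval within 1.25-fold of equality, and the most abundant of these, named after their values were seen, were Ubb (786 ± 31.3 and 798 ± 22.8), which encodes ubiquitin, and Kif1b (797 ± 15 and 771 ± 20.7), a kinesin. That equality holds for the deposited scaling: Ubb stood at -1.46 and Kif1b at -1.35 after quantile normalization.

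The Hox genes, which mark position along the body axis, are listed by cluster. Of 30 tested, 23 were higher in cord and 4 in quadriceps. All 8 HoxB genes were higher in cord, Hoxb8 at 101, 108 and 120.3 there and 0.756, 0.432 and 0.302 in quadriceps (-6.81 ± 0.18), and all 6 HoxD genes as well. HoxA had 7 of 9 genes higher in cord and HoxC 2 of 7, but the medians of both (-0.92 and -0.28) were above 0 after quantile normalization (0.01 and 0.43). The 4 genes higher in quadriceps were posterior members of HoxA and HoxC: Hoxc10 held 103, 101 and 93.1 in quadriceps and 34.3, 22.4 and 19.2 in cord (1.98 ± 0.13), Hoxc11 8.16 ± 0.923 and 2.59 ± 1.07 (1.54 ± 0.25), Hoxc9 10.1 ± 2.15 and 6.4 ± 1.05 (0.61 ± 0.10) and Hoxa10 21.2 ± 3.38 and 16.5 ± 4.99 (0.38 ± 0.15). On plain RPM Hoxc9 and Hoxa10 were lower in quadriceps (-0.62 and -0.90) and Hoxc11 was not called (0.38, adjusted p = 0.189), while Hoxa10 was not called without animal 6 (0.16, adjusted p = 0.171), without the animal block (adjusted p = 0.13) or by edgeR (adjusted p = 0.0922).

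Within cord, the libraries of the 3 animals differed along the Hox series. All 6 tested genes of groups 10 and 11 were highest in the cord of animal 4 and lowest in that of animal 6, as in Hoxd10 (17.2, 10.8 and 8.23) and Hoxc10. Of the 10 tested genes of groups 4 to 6, 8 were highest in the cord of animal 6 and 9 lowest in that of animal 4, as in Hoxb5 (20.1, 21.6 and 33.5) and Hoxc5 (2.92, 5.29 and 9.2). In quadriceps Hoxc10 lay between 93.1 and 103 and Hoxa10 at 24.1, 17.5 and 22.1. The cord of animal 4 was the library with the most Schwann cell transcript and that of animal 6 the one with the least fast-fibre transcript, and whether the pieces of cord came from the same levels was not tested.

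**Figure D5:**
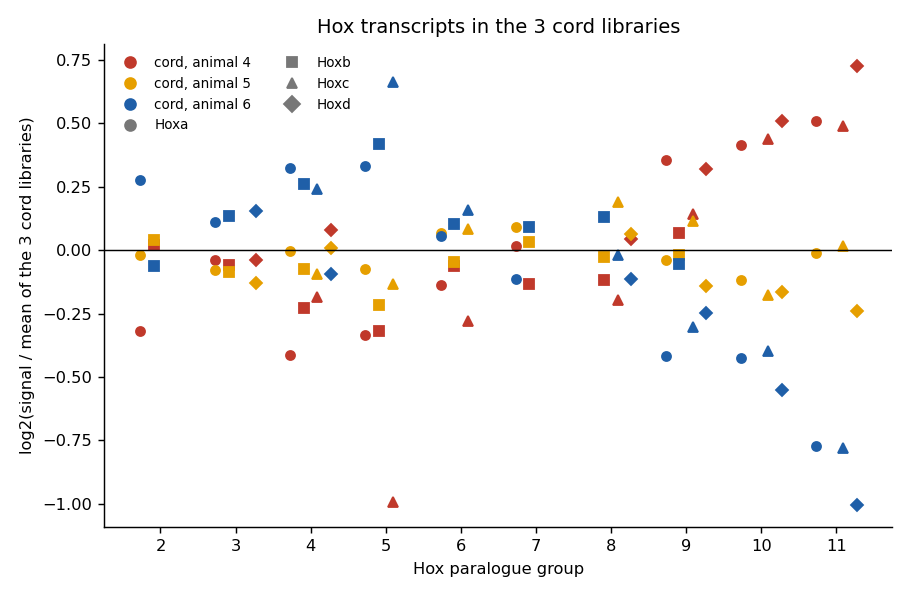
Signal of the 30 tested Hox genes in each cord library relative to the mean of the 3 cord libraries (log2), by paralogue group; colours mark the animal and symbols the cluster. Animal 4 lies lowest in most genes of groups 4 to 6 and highest in groups 10 and 11, and animal 6 the reverse.

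Of 19 splicing regulators 8 were higher in quadriceps, close to the 42.4% of all genes, and 11 in cord, and on plain RPM 4 and 12. Rbm24 (217 ± 17.9 and 1.81 ± 0.271, 6.56 ± 0.09) and Rbm20 (4.24 ± 0.11), which splice sarcomere transcripts, and Mbnl1 (2.42 ± 0.09) were higher in quadriceps. Rbfox3, the neuronal protein NeuN (0.143 ± 0.0498 and 86.9 ± 1.91, -7.09 ± 0.11), Elavl3 (-7.98 ± 0.11) and Nova1 (-3.96 ± 0.16) were higher in cord. Their relative Rbfox1 was expressed in both, at 352, 305 and 299.6 in quadriceps and 126, 127 and 126 in cord (1.33 ± 0.07; 0.02 on plain RPM, where it was not called). Rest, the repressor of neuronal genes, was higher in quadriceps (19.6 ± 1.5 and 5.94 ± 0.375, 1.64 ± 0.09), while the other 9 listed regulators of neural identity were higher in cord. Of 10 genes listed for sensory neurons 4 were tested, with 2 higher in quadriceps and 2 in cord, against 42.4% and 44.5% of all genes. Tmem233 held 314, 273 and 243 in quadriceps and 0.363, 0.644 and 0.0983 in cord (8.36 ± 0.16), and Avil 19.7, 16.2 and 14.1 and 0.45, 0.361 and 0.313 (4.28 ± 0.13). Scn9a, a sodium channel of sensory neurons, was at 5.22 ± 0.482 in cord and 0.0534 ± 0.0474 in quadriceps (-3.37 ± 0.13).

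Long genes leaned to cord. Of 908 tested protein-coding genes spanning over 200 kb, 56.7% were higher in cord beyond 2-fold and 11.9% in quadriceps, with a median difference of -1.81. Of 3287 genes of up to 10 kb, 23.2% were higher in cord and 24.7% in quadriceps, with a median of 0.24. Between these lay the genes of 10 to 50 kb (median 0.06) and of 50 to 200 kb (median -0.22). The order of the 4 length classes is a description over genes, which are not replicates. Of 323 pseudogenes tested 26.6% were higher in quadriceps beyond 2-fold and 14.2% in cord, against 20.8% and 26.7% of protein-coding genes. Reads of a pseudogene can belong to its parent gene.

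The same comparison in wild-type mice of the mixed background was made apart, in 6 other libraries. There 12721 of 15321 genes (83.0%) were called, 6219 (48.9% of these) higher in quadriceps and 6502 in cord, and on plain RPM 24.4% of the calls were higher in quadriceps. Of 14896 genes tested on both backgrounds, 10787 were called in the same direction, which is 83.2% of the B6;129 calls and 87.2% of the others, and 496 in opposite directions. No library is shared between the comparisons, and Pearson's r across these genes was 0.959, as a description. Myh4 differed by 10.74 ± 1.10, Ckm by 9.30 ± 1.02, Mobp by -11.61 ± 0.17 and Snap25 by -11.07 ± 0.08 there. Hoxb8 was higher in cord (-7.91 ± 0.14) and Hoxc10 in quadriceps (2.06 ± 0.14). Camk2a was higher in quadriceps here too (3.17 ± 0.11). Gaa held 214, 169 and 254 in quadriceps and 131, 139 and 144 in cord of the mixed-background animals labelled 1, 3 and 4 (0.60 ± 0.12).

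The size of the tissue difference was tested directly against that on B6;129, and 6379 of 16149 genes (39.5%) were called, 2141 of them by over 2-fold. Among the gene lists, the largest shifts of the median were those of the mitochondrial genome, 2.87 on B6;129 and 1.32 on the mixed background, the red cell genes, -1.10 and 0.29, and the slow and cardiac sarcomere genes, 4.00 and 2.71. General endothelial genes had medians of 1.31 and 2.52 and cytosolic ribosome genes 0.99 and -0.16. The shared sarcomere and the synaptic vesicle genes shifted by less, with medians of 9.05 and 9.16, and -6.76 and -6.48. On plain RPM 7781 genes were called, 77.2% of them with a tissue difference that was higher, in the sense of quadriceps over cord, on the mixed background, against 49.3% as deposited, so the split between directions rests on the scaling. All libraries of a background belong to 1 series of columns in the table, and an effect of the background cannot be told apart from one of the series.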

How the data were processed

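Quadriceps and spinal cord polyA RNA of 6 wild-type mice was sequenced as single-end reads in 12 libraries, of 30 in the series. The submitters' processing notes name cutadapt, RSEM, edgeR, limma and the GRCm38 build, without versions. The deposited values are a linear signal: the spacing of the values shows that the authors divided reads plus 0.5 by a scaled library size. That spacing gave back whole reads for 100% of values (within 0.001). No strand setting is given in the sources used here, so a gene and an overlapping antisense gene cannot be told apart, and near-identical copies share reads.

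For this report log2(signal + 0.5) of genes with a signal of 1 or above in 3 or more of 6 libraries was fitted with limma 3.58.1 (tissue, with the animal as a block), with Benjamini-Hochberg adjustment over all tested genes and treat for differences beyond 2-fold. Libraries of both tissues were paired by the animal number in their labels. Deviations of same-animal libraries correlated at 0.309, 0.217 and 0.181, against -0.186 to -0.0159 between animals. Here p-values rest on how the difference between tissues varied over 3 animals, with variances moderated towards a trend over all tested genes. The tissue difference on the mixed background, and its difference from that on B6;129, were fitted likewise. Genes named are Gaa, the gene pairs, the highest or opposite members of each gene list, the 10 largest differences in each direction and between backgrounds, and the most abundant genes; members with the smallest differences and a few examples were named after their values were seen. The comparison, lists and tests were chosen with earlier results of these data known. Gene models are GENCODE M21 (GRCm38) and promoters RefSeq (GRCm38.p6). Alternatives were other scalings, pseudocounts and filters, edgeR 4.0.16, DESeq2 1.42.0, no block, all libraries, and each animal left out. The fits were checked on simulated data in which few genes changed, by known folds far below the largest here. That check does not cover differences as many or as large as those between these tissues. Some genes are not reported here.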

Additional observations from a re-analysis of the deposited data

Results flagged for a closer look

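The tissue difference was tested for a difference between the B6;129 and the mixed background, and 6379 genes were called (limma, adjusted p under 0.05), so the 10 largest called differences are given here. Each value is the tissue difference (quadriceps minus cord, log2) on the mixed background minus that on B6;129.

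The largest belonged to Gm29216, an unprocessed pseudogene, at 9.60 ± 0.12. It held 6801, 7908 and 8460.3 in quadriceps and 380.2, 448 and 385 in cord on B6;129, and 7309, 7491 and 8103 and 0.0169, 0.0144 and 0.0157 on the mixed background, where the mixed-background cord values stand for 0 reads. Mixed-background cord was also without a read for several others: Gm45062 (5.14; cord 16.2, 20.6 and 14.7 on B6;129 and 0.0169, 0.0144 and 0.0157 on the mixed background), Gm27000 (4.87; cord 15.2, 15 and 13.6 and 0.0169, 0.0144 and 0.0157) and Gm5831 (4.28; cord 11.6, 12.5 and 10.5 and 0.0169, 0.0144 and 0.0157). Gm20425 differed by 5.21, Gm20431 by 4.80 and Pakap by 5.33. In the opposite direction were Rpl17-ps3 (-6.14; cord 0.0145, 0.0157 and 0.00894 on B6;129 and 32.1, 37.1 and 37.9 on the mixed background), Gm4366 (-6.99) and Gdf1 (-4.57). Rpl17-ps3 and Gm27000, which have no read in several groups, were not called by edgeR on the recovered reads.

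Of the 50 genes that were called with a difference above 3 on the log2 scale in either direction, 17 were pseudogenes, which is 4.25% of the 400 pseudogenes tested, against 23 of 14371 protein-coding genes (0.16%). Pseudogenes share sequence with a parent gene and their values are uncertain alone. An effect of the background cannot be told apart from one of the series.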

How the results depend on the processing

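The count of genes called on B6;129 lay between 11257 and 14678 under every alternative run, against 13509 of 15539 tested. Both ends come from other filters, with 12674 genes tested at a signal of 4 and 17389 without a filter. The count was 13310 by edgeR, 13324 by DESeq2, 13507 without the replicate block and 12855 to 13101 with an animal left out. Beyond 2-fold it lay between 6016 and 9100 (6944 to 7173 with an animal left out). The mixed-background count was 11470 to 12554 with an animal left out, and that of the difference between backgrounds 4506 to 6445. Without the cord libraries of animals 4 and 5, where the lone cord library is assumed to vary like the quadriceps libraries, 11622 genes were called, 6283 of them beyond 2-fold. Without the replicate block 2 of 150 named genes lost their call, Hoxa10 (adjusted p = 0.13) and Slc17a7 (adjusted p = 0.0872), and none changed direction.

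Of the 150 named genes 122 kept direction and call under every alternative. Genes with small differences turned with the scaling. On plain RPM the differences were -1.22 for Acaca, -0.92 for Fdft1, -1.02 for Gaa, -0.92 for Gphn, -1.13 for Gusb, -0.90 for Hoxa10, -0.62 for Hoxc9, -1.26 for Kif1b, -1.24 for Mylk, -0.72 for Slc16a1 and -1.28 for Tpm3. After quantile normalization they were -0.038 for Fdft1, -0.59 for Gaa, -1.12 for Gm10925, -1.35 for Kif1b, -0.29 for Tpm3 and -0.16 for mt-Co1. After median centring they were 0.25 for Camk2g, 0.18 for Capn2, 0.24 for Ctsb and 0.24 for Ubb, all of which were called higher in cord after quantile normalization (-1.46 to -0.54) and on plain RPM (-1.39 to -1.32). Leaving out an animal moved Tpm3 between -0.18 (without animal 6) and 0.13 (without animal 4). Why these values turn was not tested, apart from the shift of the median gene by each scaling printed with the counts of calls. Levels near the worth of 1 read are limited by depth.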
